A study of Mus musculus with 12 samples.

Results

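The carnitine acyltransferases *Cpt1b*, *Cpt1a*, *Cpt1c*, *Cpt2*, *Crat* and *Crot* were examined for trimethylation of histone H3 at lysine 4 (H3K4me3), a mark of active promoters, in nuclei of adult mouse cardiomyocytes (CMs). All peaks that the deposited table names for these genes were taken. Each of the 6 genes had a single peak, so 6 of 15848 peaks on mm10 (GRCm38) are described, together with a peak over *Cpt1b* that carries the name of another gene. All 6 were among the 15039 peaks that passed the filter on low values, a mean normalized count of at least 10 over the 6 libraries.

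Chromatin immunoprecipitation and sequencing (ChIP–seq) was performed on 3 CtrlCre and 3 Cpt1bcKO libraries, with genotype labels Ctrl_Cre and Cpt1b_CKO. Cpt1bcKO mice were αMHC-Cre pos/+ and Cpt1b fl/fl, and CtrlCre mice were αMHC-Cre pos/+ and Cpt1b +/+, so that both genotypes carried the Cre recombinase. The αMHC promoter drives Cre in CMs from embryonic stages, and *Cpt1b* had therefore been lost in CMs long before the adult hearts were taken. The study sorted ventricular nuclei with an antibody against PCM1, which it used to mark CM nuclei. Nothing in the labels states that the libraries of a genotype came from separate mice, and the p-values measure the spread between these libraries only.

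Carnitine acyltransferases move acyl groups between coenzyme A and carnitine. CPT1 on the outer mitochondrial membrane makes acylcarnitine from long-chain acyl-CoA and is the gate of fatty acid oxidation. CPT1B is the form of heart and skeletal muscle, CPT1A that of liver and of the fetal heart, and CPT1C a form of neurons. The translocase SLC25A20 carries acylcarnitine across the inner membrane, where CPT2 returns the acyl group to coenzyme A. CRAT exchanges acetyl groups and other short chains, and CROT, a peroxisomal enzyme, exchanges medium chains.

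Marker genes fixed for the cell types of the heart were read first. All 8 CM markers had a tested peak, with summed normalized counts of 6710 to 8246 in CtrlCre and 4988 to 7330 in Cpt1bcKO libraries. A tested peak was present for 1 of 5 fibroblast markers (*Pdgfra*, 58 to 69 in CtrlCre and 56 to 63 in Cpt1bcKO), 1 of 5 endothelial markers (*Kdr*, 39 to 91 and 31 to 51), 2 of 4 mural markers (*Kcnj8* and *Cspg4*, summed 65 to 128 and 36 to 83) and 0 of 4 leukocyte markers. The markers *Col1a1*, *Pecam1*, *Pdgfrb* and *Ptprc* had no peak under their names. No marker peak passed an adjusted p of 0.05 by limma, and the part of cell composition in the results below was not tested. Counts in peaks ranged from 763133 in CtrlCre replicate 2 to 2766416 in Cpt1bcKO replicate 2.

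The first sequences shown are the *Cpt1b* exons that the study flanked with *loxP* sites, exons 10 and 11. Both are shown from the reference genome on the minus strand, 5′ to 3′, with the exon in capitals and 20 bases of intron on each side in lower case. Exon numbers follow the transcript Cpt1b-201 of GENCODE vM21, which has 19 exons. The transcript behind the numbers of the study was not given in the sources used here.
Cpt1b exon 10 (GRCm38, chr15:89421345-89421540, 196 bases): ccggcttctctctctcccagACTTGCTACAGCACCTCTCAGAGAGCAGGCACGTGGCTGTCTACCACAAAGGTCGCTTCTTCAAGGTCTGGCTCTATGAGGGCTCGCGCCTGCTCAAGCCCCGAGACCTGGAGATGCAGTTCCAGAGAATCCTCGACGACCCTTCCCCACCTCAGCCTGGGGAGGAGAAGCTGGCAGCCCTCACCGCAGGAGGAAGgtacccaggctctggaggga
Cpt1b exon 11 (GRCm38, chr15:89420692-89420877, 186 bases): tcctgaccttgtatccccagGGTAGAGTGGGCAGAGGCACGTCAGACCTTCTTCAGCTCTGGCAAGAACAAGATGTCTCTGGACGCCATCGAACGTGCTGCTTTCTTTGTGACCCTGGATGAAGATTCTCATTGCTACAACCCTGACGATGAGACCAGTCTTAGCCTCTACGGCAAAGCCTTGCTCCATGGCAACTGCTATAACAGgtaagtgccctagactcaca

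Together both exons hold 382 coding bases, which is 127 whole codons and 1 base more. Neither exon lies in a peak. The *Cpt1b* peak ended 455 bases before exon 10 and the next peak began 156 bases after exon 11. The table therefore holds no value for these exons, and the peaks cannot show whether they were deleted. The positions of the *loxP* sites were not given in the sources used here.

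Promoters of the family are shown to let the peaks be set beside their sequence. The table of RefSeq promoters used here (GRCm38.p6) was matched for 4 of the 6 genes, all but *Cpt1b* and *Crat*. Each runs from 250 bases before to 50 bases after a RefSeq transcript start, on the strand of the gene, with every CpG in capitals. *Chkb* is added because its start lies under the *Cpt1b* peak.
Cpt1a promoter (chr19:3323051-3323350, plus strand): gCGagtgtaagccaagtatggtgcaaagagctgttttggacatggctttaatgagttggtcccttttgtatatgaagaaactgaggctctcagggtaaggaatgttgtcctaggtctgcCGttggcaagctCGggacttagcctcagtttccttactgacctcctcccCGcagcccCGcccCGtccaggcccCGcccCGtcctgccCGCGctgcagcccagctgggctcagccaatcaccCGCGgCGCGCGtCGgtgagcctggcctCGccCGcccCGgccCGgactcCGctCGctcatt
Cpt1c promoter (chr7:44974802-44975101, minus strand): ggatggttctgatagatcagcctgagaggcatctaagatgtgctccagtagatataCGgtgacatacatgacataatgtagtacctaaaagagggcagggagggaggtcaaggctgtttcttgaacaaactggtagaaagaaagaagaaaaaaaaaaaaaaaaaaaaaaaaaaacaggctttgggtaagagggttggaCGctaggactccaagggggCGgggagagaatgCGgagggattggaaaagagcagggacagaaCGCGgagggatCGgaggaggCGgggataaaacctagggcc
Cpt2 promoter (chr4:107923540-107923839, minus strand): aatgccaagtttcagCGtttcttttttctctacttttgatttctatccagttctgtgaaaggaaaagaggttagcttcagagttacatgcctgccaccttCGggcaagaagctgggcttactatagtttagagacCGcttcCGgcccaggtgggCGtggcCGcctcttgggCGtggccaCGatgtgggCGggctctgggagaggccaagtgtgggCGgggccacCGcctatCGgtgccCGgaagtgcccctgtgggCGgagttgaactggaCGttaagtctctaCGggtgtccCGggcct
Crot promoter (chr5:8997097-8997396, minus strand): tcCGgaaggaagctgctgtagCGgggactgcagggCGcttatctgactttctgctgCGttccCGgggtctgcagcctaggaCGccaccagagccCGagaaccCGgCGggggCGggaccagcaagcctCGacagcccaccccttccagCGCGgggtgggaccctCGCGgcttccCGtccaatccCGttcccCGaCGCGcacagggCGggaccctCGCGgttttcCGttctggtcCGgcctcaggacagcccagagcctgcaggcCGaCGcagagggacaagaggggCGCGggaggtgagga
Chkb promoter (chr15:89429878-89430177, minus strand): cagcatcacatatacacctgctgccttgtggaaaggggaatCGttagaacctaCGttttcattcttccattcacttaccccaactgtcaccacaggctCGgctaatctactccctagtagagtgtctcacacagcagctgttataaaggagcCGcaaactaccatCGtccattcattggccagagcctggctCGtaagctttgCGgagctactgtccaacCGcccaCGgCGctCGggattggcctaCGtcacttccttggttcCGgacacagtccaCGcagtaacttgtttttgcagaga

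CpG dinucleotides numbered 29 at *Crot*, 22 at *Cpt1a*, 17 at *Cpt2*, 14 at *Chkb* and 8 at *Cpt1c*, against a median of 7 over all 32851 RefSeq promoters. The *Cpt1a*, *Cpt2*, *Crot* and *Chkb* windows overlapped a peak and the *Cpt1c* window did not. Of all promoters, 40.5% overlapped a peak, and of those with a CpG number like that of *Cpt1c*, 26.2% did. At CpG numbers like those of *Cpt1a*, *Cpt2*, *Crot* and *Chkb*, 88.7%, 80.9%, 90.0% and 70.4% did. The GC box GGGCGG, searched on both strands, was present 3 times at *Cpt1a*, 3 times at *Cpt2*, 2 times at *Crot* and once each at *Cpt1c* and *Chkb*, and 35.7% of all promoters hold it. The nuclear receptor half-site AGGTCA was present once at *Cpt1a* and once at *Cpt1c*, and 16.3% of promoters hold it. TATAAA was found only at *Chkb* among the 5 windows, and 13.6% of promoters hold it. CCAAT was found at *Cpt1a*, *Cpt1c*, *Crot* and 2 times at *Chkb*, and 37.4% of promoters hold it. These matches are letters in a window and say nothing of binding.

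In the peak named for the inactivated gene, H3K4me3 was higher in Cpt1bcKO than in CtrlCre CMs. The *Cpt1b* peak (ENSMUSG00000078937, chr15:89421995-89431151) gave normalized counts of 428, 407 and 436 in the CtrlCre libraries and of 572, 689 and 568 in the Cpt1bcKO libraries. The genotypes did not overlap, and Cpt1bcKO replicate 2 was the highest library. The mean rose from 424 ± 15 (SD, n = 3) to 610 ± 68.7 (SD, n = 3). By limma over all tested peaks the log2 difference came to 0.52 (SE 0.10, 95% interval 0.31 to 0.73; adjusted p = 0.00357). This test reads the rounded normalized values on the log2(value + 1) scale. Counting error alone was between 3.07% and 7.56% of the value in each library, less than the difference.

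The *Cpt1b* peak was 9156 bases long, and 99.5% of tested peaks were shorter. It began 5288 bases before the *Cpt1b* start, ended 3868 bases after it and covered exons 1 to 9. The summit lay 3838 bases before the *Cpt1b* start and 207 bases after the start of *Chkb*, the gene of choline kinase beta, which stands 4045 bases before *Cpt1b* on the same strand. The peak also overlapped Gm44502 and C730034F03Rik. Signal of *Cpt1b* and *Chkb* within this peak cannot be told apart, nor can more marked nuclei from more signal per nucleus.

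**Figure D1:**
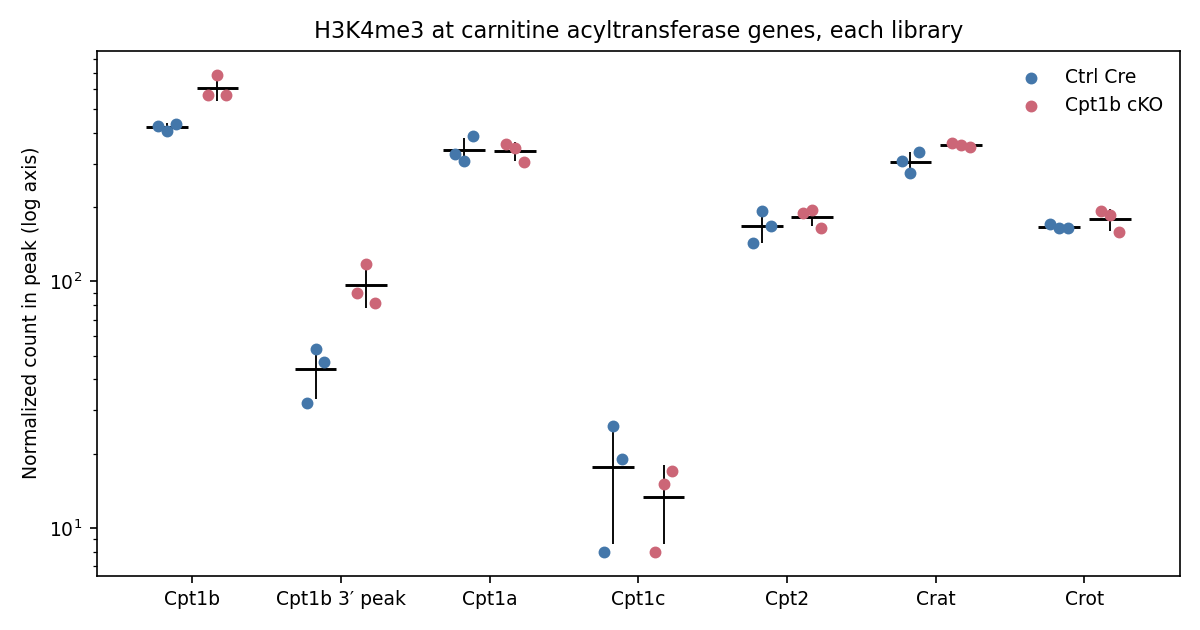
Normalized counts of each library (points; log axis) for the 6 named peaks and the 3′ peak of *Cpt1b*, with the mean (horizontal line) and SD (vertical line) of 3 CtrlCre (blue) and 3 Cpt1bcKO (red) libraries. Points of the genotypes are apart at *Cpt1b*, at its 3′ peak and at *Crat*, and overlap at *Cpt1a*, *Cpt1c*, *Cpt2* and *Crot*.

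A second peak covered the 3′ part of the gene, beyond the floxed exons. The table names it for *Syce3*, but on the annotation used here this stretch (chr15:89415304-89420536, 5232 bases) overlapped only *Cpt1b* and Gm44502, the *Chkb*-*Cpt1b* readthrough gene. It held exons 12 to 19 and ran 1101 bases past the gene end. The authors named peaks for a promoter within 5 kb, and the distance of this peak from the *Syce3* start was not read. Signal of *Cpt1b* and of *Syce3* within it cannot be told apart. The name 3′ peak of *Cpt1b* used here gives its position only. Normalized counts were 32, 53 and 47 in the CtrlCre libraries and 90, 117 and 82 in the Cpt1bcKO libraries. Every Cpt1bcKO library was above every CtrlCre library. The mean rose from 44.0 ± 10.8 to 96.3 ± 18.3 (SD, n = 3 each), with a log2 difference of 1.13 (SE 0.20, 95% interval 0.71 to 1.55) and an adjusted p of 0.00175 by limma.

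The 3′ peak was long but thin. Per kilobase of peak it held 8.41 normalized counts in CtrlCre and 18.4 in Cpt1bcKO, and only 1.31% of tested peaks held fewer over all libraries. Recovered counts behind it were 38, 23 and 50 in CtrlCre and 80, 180 and 114 in Cpt1bcKO libraries. The 5′ peak held 46.3 per kilobase in CtrlCre and 66.6 in Cpt1bcKO, close to the middle of the tested peaks, of which 46.1% held fewer.

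The gap between the peaks was 1459 bases and contained exons 10 and 11 whole, shown above, and no other exon. Gaps of this size or less were rare, with 83 among 15827 pairs of adjacent peaks (0.524%) and a median gap of 51065 bases. In a percentage of the 5′ peak, the 3′ peak amounted to 7.48%, 13.0% and 10.8% in the CtrlCre libraries and to 15.7%, 17% and 14.4% in the Cpt1bcKO libraries. The genotypes did not overlap. The mean share was 10.4% ± 2.79 and 15.7% ± 1.27 (SD, n = 3 each), and the exact two-sided permutation test gave p = 0.1, the smallest it allows with 3 libraries against 3. The share was computed after the values of both peaks had been seen. Added together, both peaks held 460, 460 and 483 normalized counts in CtrlCre and 662, 806 and 650 in Cpt1bcKO libraries.

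**Figure D2:**
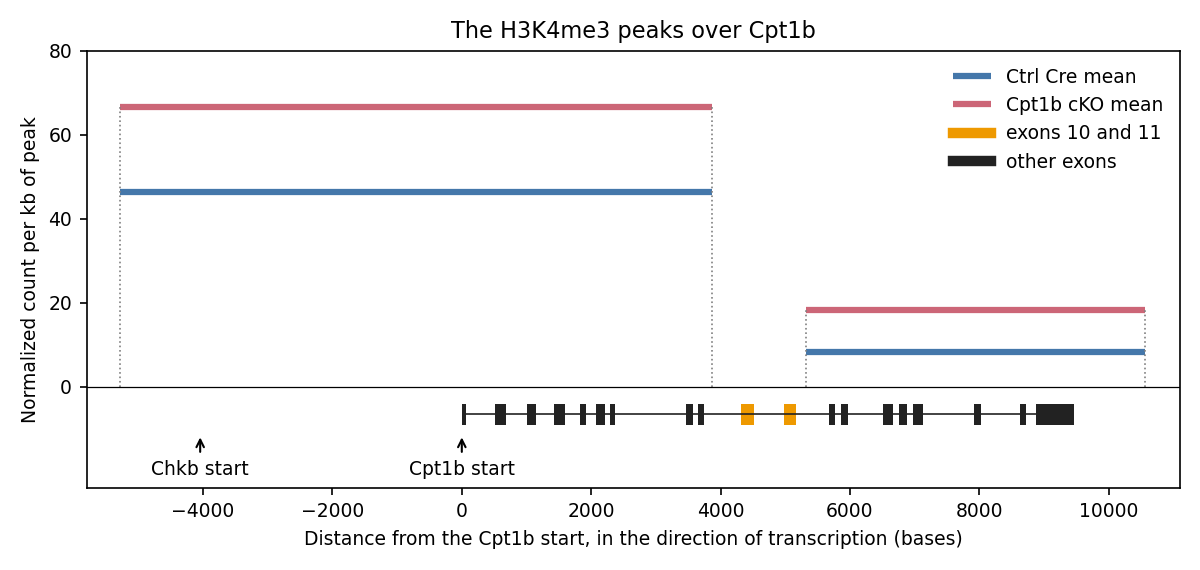
Map of the *Cpt1b* locus drawn to scale, in bases from the *Cpt1b* start, with mean normalized counts per kilobase of each peak (horizontal lines; blue CtrlCre, red Cpt1bcKO; dotted lines mark peak edges) above the exons of Cpt1b-201. Exons 10 and 11 (orange) fall in the gap of 1459 bases between the peaks, and both peaks are higher in Cpt1bcKO.

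Peaks around the gene were read to see how far the higher signal reached. Within 200 kb of the centre of the *Cpt1b* peak lay 11 other peaks, all tested. The 3′ peak of *Cpt1b* was the 1 peak called higher, against 1.11% of all tested peaks, and 0 were called lower, against 1.82%. Without it, log2 differences of the other peaks ranged from -0.23 at *Odf3b* to 1.07 at *Mapk8ip2*, with a median of 0.18 beside 0.0057 over all tested peaks. *Mapk8ip2*, which encodes a scaffold of JNK signalling and lies upstream of *Chkb*, gave 8, 7 and 8 in CtrlCre and 18, 14 and 20 in Cpt1bcKO libraries. Its genotypes did not overlap, as for 16.3% of all tested peaks, and with so few counts the log2 difference of 1.07 (SE 0.45) had an adjusted p of 0.288 by limma. *Sco2*, the gene of a copper chaperone of cytochrome c oxidase, gave 134, 144 and 147 in CtrlCre and 137, 176 and 183 in Cpt1bcKO libraries, which overlapped.

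**Figure D3:**
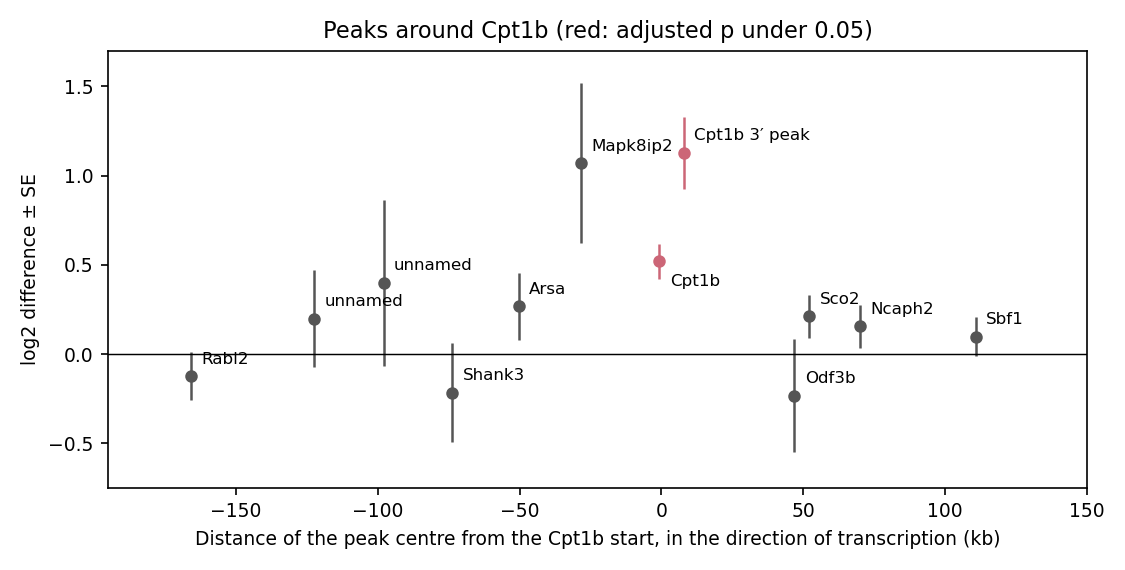
The log2 difference (Cpt1bcKO minus CtrlCre, with SE bars) of the 12 peaks around *Cpt1b* against the distance of the peak centre from the *Cpt1b* start in kilobases, positive in the direction of transcription. Only *Cpt1b* and its 3′ peak (red) have an adjusted p under 0.05.

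No difference was detected at *Cpt1a*, whose product does the same reaction. Its peak (ENSMUSG00000024900, chr19:3322000-3326603, 4603 bases) gave 328, 307 and 387 in the CtrlCre and 362, 347 and 305 in the Cpt1bcKO libraries. The ranges overlapped almost whole, with means of 341 ± 41.5 and 338 ± 29.5 (SD, n = 3 each). By limma the log2 difference came to -0.0082 (SE 0.10, adjusted p = 0.991). Its 95% interval, -0.22 to 0.21, ends below the lower bound of *Cpt1b*, and a change within that interval remains possible. The interval is not a limit of detection for the test. The sign turned to 0.087 without CtrlCre replicate 3 and to 0.064 without Cpt1bcKO replicate 3. The peak covered exon 1 of Cpt1a-201 from 334 bases before to 4269 bases after the start, with its summit 1217 bases after the start. The RefSeq start of the window shown above lies downstream of that of Cpt1a-201, inside the peak.

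The balance between the peaks named for *Cpt1b*, which also spans *Chkb*, and *Cpt1a* was also read within each library. The *Cpt1b* peak held 1.30, 1.33 and 1.13 times the normalized count of the *Cpt1a* peak in CtrlCre and 1.58, 1.99 and 1.86 times in Cpt1bcKO libraries. These ratios compare whole peaks of different length, so only their change between libraries can be read. The genotypes did not overlap. Against the mean log2 level of the other 5 members, *Cpt1b* stood at 1.63 ± 0.22 in CtrlCre and 2.11 ± 0.09 in Cpt1bcKO (SD, n = 3 each). The difference of 0.49 had an exact two-sided permutation p of 0.1, the smallest possible. Leaving out *Cpt1c*, whose peak is low, gave 0.41.

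*Cpt1c* had no H3K4me3 peak at its start. The peak named for it (chr7:44970435-44970833) was 398 bases long, shorter than all but 1.52% of tested peaks, and lay 4018 to 4416 bases inside the gene over exons 5 to 6 of Cpt1c-201, where it also overlapped 6530437J22Rik. It gave 8, 26 and 19 in CtrlCre and 8, 15 and 17 in Cpt1bcKO libraries. These overlapped, and counting error was between 20.4% and 37.8% of each value. The log2 difference of -0.30 (SE 0.46, 95% interval -1.27 to 0.66) had an adjusted p of 0.863 by limma and turned sign when CtrlCre replicate 2 (0.034) or Cpt1bcKO replicate 1 (0.0027) was left out.

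*Cpt2*, the inner membrane enzyme that completes the shuttle, gave 143, 193 and 167 in CtrlCre and 189, 194 and 165 in Cpt1bcKO libraries (chr4:107921358-107923843, 2485 bases, over exon 1 of Cpt2-201). The ranges overlapped, since CtrlCre replicate 2 was nearly as high as the highest Cpt1bcKO library. By limma the log2 difference came to 0.13 (SE 0.12, 95% interval -0.11 to 0.37, adjusted p = 0.729). It went from 0.021 without CtrlCre replicate 1 to 0.24 without CtrlCre replicate 2, and was 0.085 without Cpt1bcKO replicate 2 and 0.20 without Cpt1bcKO replicate 3.

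*Crat*, the acetyl transferase, came nearest to the threshold after *Cpt1b*. Its peak (chr2:30412798-30417027, 4229 bases, exons 1 to 3 of Crat-203) gave 308, 274 and 334 in CtrlCre and 365, 358 and 350 in Cpt1bcKO libraries. The genotypes did not overlap, and the 3 Cpt1bcKO libraries lay close together. Means were 305 ± 30.1 and 358 ± 7.51 (SD, n = 3 each). The log2 difference of 0.23 (SE 0.097, 95% interval 0.030 to 0.43) had an unadjusted p of 0.026 and an adjusted p of 0.288 by limma, and it did not pass the test. The peak also overlapped *Ptpa*, the neighbouring gene of a phosphatase activator, and Gm16323.

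*Crot*, the peroxisomal enzyme, gave 170, 165 and 165 in CtrlCre and 192, 186 and 158 in Cpt1bcKO libraries (chr5:8996062-8997891, 1829 bases, exons 1 to 2 of Crot-201). The CtrlCre libraries were nearly level, and Cpt1bcKO replicate 3 lay below all of them while the other two were above. It differed by 0.095 on the log2 scale (SE 0.11, 95% interval -0.13 to 0.32), and limma gave an adjusted p of 0.803. The difference was 0.041 without Cpt1bcKO replicate 1 and 0.18 without Cpt1bcKO replicate 3. The peak also overlapped the gene models Gm27941 and Gm37153.

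Over the family, 1 of 6 named peaks was called higher and 0 lower, where 1.11% and 1.82% of all tested peaks were called. The 3 values of each genotype were apart at 2 of 6 peaks, beside 16.3% of tested peaks in either direction. The median log2 difference of the 6 was 0.11, and that of all tested peaks 0.0057.

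**Figure D4:**
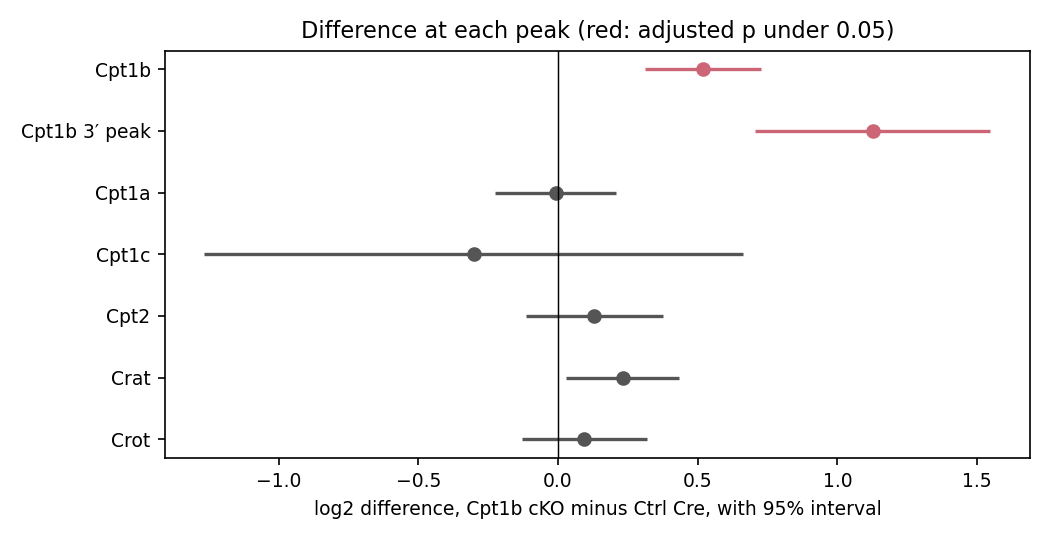
The log2 difference (Cpt1bcKO minus CtrlCre) of each peak with its 95% interval from limma. The intervals of *Cpt1b* and its 3′ peak (red) lie above 0, and so does that of *Crat*, whose adjusted p was 0.288. Those of *Cpt1a*, *Cpt1c*, *Cpt2* and *Crot* span 0.

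Members were then ordered by level per kilobase of peak in CtrlCre CMs. *Crot* was highest at 91.1 ± 1.58 normalized counts per kilobase, before *Cpt1a* at 74.0 ± 9.01, *Crat* at 72.2 ± 7.11, *Cpt2* at 67.5 ± 10.1, *Cpt1b* at 46.3 ± 1.64 and *Cpt1c* at 44.4 ± 22.8 (SD, n = 3 each). Ranges of *Crot* and *Cpt1a* were apart, and so were those of *Cpt2* and *Cpt1b*. The neighbours *Cpt1a* and *Crat*, *Crat* and *Cpt2*, and *Cpt1b* and *Cpt1c* overlapped. In Cpt1bcKO CMs *Cpt1b*, at 66.6 ± 7.51, overlapped *Cpt2* at 73.5 ± 6.24. The peak named for *Cpt1b* was thus low per length beside the other members except *Cpt1c*. It was the longest of the 6 and held the most counts in all. Since it also spans *Chkb*, neither value is a level of *Cpt1b* alone.

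Genes that bring acyl groups and carnitine to these enzymes were read next, each by its peak with the highest mean. Of 14 such genes 12 had a tested peak, and 1 was called higher and 0 lower, with a median log2 difference of 0.013. Of all 11067 genes with a tested peak, 0.967% were called higher and 1.26% lower. The called gene was *Slc25a20*, the acylcarnitine translocase between CPT1 and CPT2. It gave 148, 135 and 156 in CtrlCre and 201, 230 and 186 in Cpt1bcKO libraries. All Cpt1bcKO libraries were higher, by 0.49 on the log2 scale (SE 0.11, adjusted p = 0.0148 by limma). The adjusted p rose to 0.0591 without CtrlCre replicate 1, 0.0580 without Cpt1bcKO replicate 1 and 0.119 without Cpt1bcKO replicate 2.

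*Slc22a5*, the plasma membrane carnitine transporter OCTN2, gave 165, 188 and 196 in CtrlCre and 235, 248 and 217 in Cpt1bcKO libraries. Again all 3 were above the controls, but the log2 difference of 0.35 (SE 0.10) had an adjusted p of 0.0748 by limma and did not pass. *Acsl1*, the main long-chain acyl-CoA synthetase of the heart, gave 182, 198 and 147 in CtrlCre and 146, 165 and 155 in Cpt1bcKO libraries. These overlapped, with a log2 difference of -0.17 (SE 0.12) and an adjusted p of 0.620 by limma. It was -0.076 without CtrlCre replicate 2 and -0.29 without CtrlCre replicate 3. *Slc25a29* was counted in this list although it is a mitochondrial carrier of basic amino acids. It gave 255, 232 and 230 in CtrlCre and 225, 218 and 228 in Cpt1bcKO libraries. All Cpt1bcKO libraries were below the controls, with a log2 difference of -0.094 (SE 0.097, -0.047 without CtrlCre replicate 1) and an adjusted p of 0.773 by limma. *Fabp3* and *Acsl3* had no peak under their names.

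Malonyl-CoA inhibits CPT1, and the genes that make it, remove it or control its synthesis through AMP-activated kinase formed a list of 9, of which 8 had a tested peak. By limma 0 of 8 were called in either direction, beside 0.967% of all genes higher and 1.26% lower, and 0 by limma-voom on recovered counts. At an unadjusted limma p under 0.05, 2 were higher and 0 lower, where 12.8% of all tested peaks passed in either direction. In the supply list above 2 of 12 were higher and 0 lower, and in the transcription factor list below 2 and 1 of 12. The median log2 difference of the 8 was 0.11. *Acacb*, the acetyl-CoA carboxylase of the mitochondrial surface, gave 258, 267 and 306 in CtrlCre and 329, 369 and 311 in Cpt1bcKO libraries. All Cpt1bcKO libraries were above the controls, with a log2 difference of 0.28 (SE 0.10) and an adjusted p of 0.184 by limma. *Mlycd*, malonyl-CoA decarboxylase, gave 206, 193 and 225 against 244, 238 and 240, and *Prkab2*, a kinase subunit, 156, 149 and 154 against 181, 170 and 170. Neither passed, with adjusted p of 0.361 and 0.500 by limma. *Prkag1*, another kinase subunit, pointed the other way with 82, 86 and 67 in CtrlCre and 66, 70 and 53 in Cpt1bcKO libraries. These overlapped, and the log2 difference of -0.31 (SE 0.18, -0.19 without Cpt1bcKO replicate 3) had an adjusted p of 0.484 by limma. *Acaca* had no peak under its name.

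Transcription factors and coactivators known to act on CPT1 genes formed a list of 14, of which 12 had a tested peak, with 1 called higher and 0 lower, beside 0.967% and 1.26% of all genes. The called gene was *Pparg*, a fatty acid receptor of adipocytes, with 130, 126 and 129 in CtrlCre and 199, 159 and 178 in Cpt1bcKO libraries. Every Cpt1bcKO library lay above the controls, by 0.47 on the log2 scale in the mean (SE 0.11, adjusted p = 0.0216 by limma). It lay above 0.05 without CtrlCre replicate 1 (0.0769), CtrlCre replicate 3 (0.0541), Cpt1bcKO replicate 1 (0.184) or Cpt1bcKO replicate 3 (0.0893). *Ppara*, the receptor that drives *Cpt1b* in the heart, gave 330, 293 and 363 in CtrlCre and 353, 383 and 302 in Cpt1bcKO libraries, which overlapped, with an adjusted p of 0.856 by limma. *Rxra*, its partner, gave 171, 165 and 174 in CtrlCre and 140, 138 and 145 in Cpt1bcKO libraries. These did not overlap, but the log2 difference of -0.27 (SE 0.11) had an adjusted p of 0.247 by limma. *Rxrb* and *Mef2c* had no peak under their names.

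Carnitine synthesis was represented by *Aldh9a1* alone among 3 genes, with a log2 difference of -0.073 (SE 0.13) and an adjusted p of 0.890 by limma. *Chat*, the structural relative that acetylates choline, had no peak. Over all lists 33 of 41 genes had a tested peak, 20 with a positive and 13 with a negative difference. Among all 11067 genes with a tested peak, 6098 were positive and 4969 negative. In the lists 2 genes were called higher and 0 lower (0 to 2 called when 1 library was left out), beside 0.967% and 1.26% of all genes. Genotypes were apart at 8 of the 33 list genes in the higher and 3 in the lower direction, where 8.39% and 6.78% of all genes were. The median log2 difference of these 33 was 0.016, beside 0.020 over all 11067 genes with a tested peak.

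**Figure D5:**
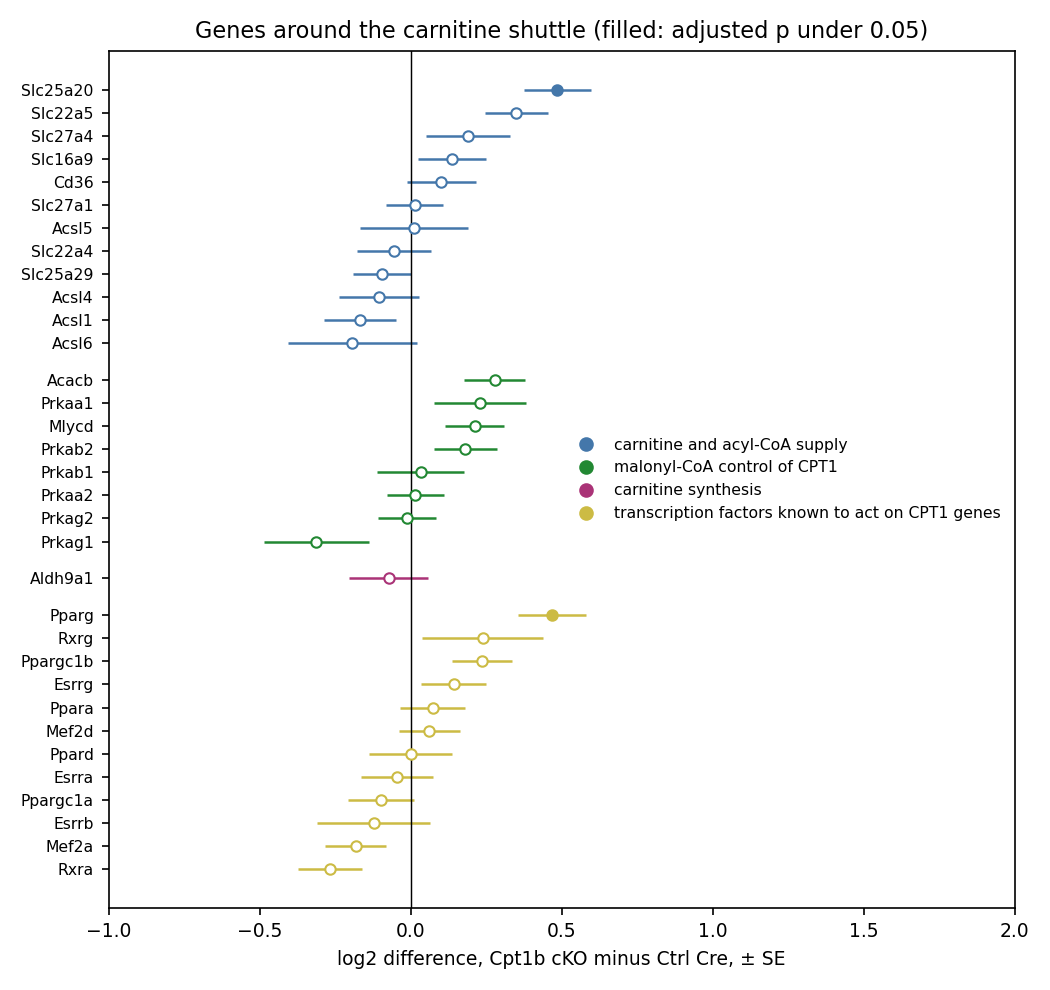
The log2 difference (Cpt1bcKO minus CtrlCre, with SE bars) of the 33 genes around the carnitine shuttle with a tested peak, by list (colours). Filled points, *Slc25a20* and *Pparg*, have an adjusted p under 0.05.

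The peaks whose pattern over the 6 libraries was most like that of *Cpt1b* were found by the root mean square difference of log2 values centred on their mean, as a description with no test. Of 11330 peaks with a gene name, *Slc25a20* was first (0.0466), followed by *Ugp2* (0.0467), *Ctsl* (0.0509), *Ckap2* (0.0709) and *Ten1* (0.0737). The median was 0.310. *Slc25a20*, the translocase described above, had its lowest CtrlCre library in replicate 2 and its highest Cpt1bcKO library in replicate 2. So did *Cpt1b*, *Ctsl* and *Ckap2*. Of the 6 libraries these had the fewest and the most counts in peaks, 763133 and 2766416. *Ugp2*, which makes UDP-glucose, gave 274, 277 and 311 in CtrlCre and 389, 478 and 389 in Cpt1bcKO libraries. *Ctsl*, a lysosomal protease, gave 171, 167 and 177 in CtrlCre and 222, 255 and 219 in Cpt1bcKO libraries. All share the same libraries and their depth. The 3′ peak of *Cpt1b* ranked 8594 by this measure, with a difference of 0.387. The measure takes in the size of a change, and the log2 difference between genotypes was 1.13 there and 0.52 at the 5′ peak. Both peaks were higher in every Cpt1bcKO library than in any CtrlCre library.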

How the data were processed

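The authors trimmed reads (Trimmomatic 0.39), aligned them to mm10 with STAR 2.6.1d keeping unique unspliced alignments, removed duplicates (Picard 2.21.7), called peaks against input with MUSIC and merged them into union peaks. The value per library that the authors deposited is the read count of a peak divided by a DESeq2 1.26.0 size factor and rounded, treated here as a score and not as a raw count. The deposited mean signal of each genotype is unrounded, and the deposited fraction of a peak in the gene body entered no test. Deposited log2 fold changes, p-values and adjusted p-values are the comparison of the authors and were not used. Size factors set the bulk of peaks to no change, so a shift shared by all peaks would not be visible. By western blot the study found less H3K4me3 in Cpt1bcKO than in CtrlCre CM nuclei. Higher and lower are therefore relative to the bulk of peaks. Peaks were named by the authors for a promoter within 5 kb, so a peak over several genes carries 1 name.

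Values were tested with limma 3.58.1 (R 4.3.3; lmFit, eBayes with a trend) on log2(value + 1), genotype alone, two-sided, with Benjamini-Hochberg adjustment over the 15039 peaks that averaged at least 10. The script was tested on simulated data. Single values per library were compared by exact permutation. Whole counts were recovered by a search for counts that give the rounded values and the genotype means, with a single solution for 15848 of 15848 peaks. Floors of 3 counts equal 1.95 to 6.97 normalized counts, and floors and counting errors cover counting only. Exons are those of GENCODE vM21, whereas the study used another GENCODE release. Input libraries had no column in the table and entered no comparison.

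The members and the gene lists were chosen with earlier results of these data known. Named were all peaks of the members or over their genes, peaks within 200 kb of *Cpt1b*, called list genes with *Slc25a20*, *Slc22a5*, *Acsl1* and *Acacb*, and the 5 peaks most like *Cpt1b*. *Slc25a29*, *Mlycd*, *Prkab2*, *Prkag1*, *Ppara*, *Rxra* and *Aldh9a1* were named after their values were seen. Alternatives were a pseudocount of 5, no filter, a mean of at least 50, quantile normalization, limma-voom on recovered counts, a replicate block and leaving out each library. The same alternatives for the 3′ peak of *Cpt1b* and for named genes that are no members, and the comparison without *Cpt1c*, were chosen after seeing the data. Same-numbered libraries did not deviate together (correlations of 0.0759, -0.0812 and 0.105 for numbers 1 to 3), so the numbers were not taken to pair them.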

Additional observations from a re-analysis of the deposited data

How the results depend on the processing

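The *Cpt1b* difference stayed higher and under an adjusted p of 0.05 (limma) in all 12 alternatives, with log2 values of 0.43 to 0.57 and adjusted p of 0.000319 to 0.0343. The 3′ peak did so too, at 0.92 to 1.27 and 0.000231 to 0.0358. With a replicate block the adjusted p were 0.0173 and 0.00148, and the block ended no call of a member or list gene. The count of called members stayed at 1 and that of called neighbours at 1. Called peaks numbered 495 by limma-voom and 338 at a mean of at least 50, in place of 441. With quantile normalization 3 list genes were called, in place of 2. Leaving out 1 library at a time gave 0.43 to 0.57 for *Cpt1b*, 0.92 to 1.27 for the 3′ peak, 0.40 to 0.61 for *Cpt1b* against the other members, 229 to 431 called peaks in place of 441 and 0 to 2 called list genes in place of 2. Called peaks fell to 229 without CtrlCre replicate 1, 288 without Cpt1bcKO replicate 2 and 246 without Cpt1bcKO replicate 3, and the list count to 0 without CtrlCre replicate 1 or Cpt1bcKO replicate 1 and to 1 without CtrlCre replicate 3, Cpt1bcKO replicate 2 or Cpt1bcKO replicate 3 (fewer samples). *Cpt1a* ranged from -0.080 to 0.087 and *Cpt1c* from -0.76 to 0.034, with the sign turned for *Cpt1a* (0.087 and 0.064) and *Cpt1c* (0.034 and 0.0027) without the libraries named above and no adjusted p under 0.573. *Cpt1c* has no value at a mean of at least 50. Counts of 7 to 24 reads limit *Cpt1c* most. *Cpt1b* against the other members had an exact p of 0.1, of 0.2 without any 1 Cpt1bcKO library and of 0.25 with the block, and none of these designs can reach 0.05.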
